A study of Drosophila melanogaster with 3 samples.

Results

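The genes for Rab proteins, Vps proteins and syntaxins, which move membrane between compartments of the cell, were examined for places occupied by CG2712, a Drosophila zinc finger protein. A gene was included when it was protein-coding in Ensembl release 115 and its symbol began with Rab and a digit, RabX, Vps and a digit, or Syx and a digit. This gave 73 of 13968 protein-coding genes on the 7 chromosomes, of which 36 carried Rab symbols, 27 Vps symbols and 10 Syx symbols. Of the 36, 33 were Rab GTPases and the other 3, Rab3-GAP, Rab3GAP1 and Rab3-GEF, encode regulators of Rab3.

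Chromatin immunoprecipitation with sequencing (ChIP-seq) was done on whole Drosophila melanogaster embryos of both sexes, collected between 0 and 16 hours of age. The embryos came from 1 transgenic line in which GFP is joined to the C terminus of CG2712, and an antibody against GFP was used. There was 1 group of 3 biological replicates with no second condition, and 1 control file stood behind the peak calls. All tissues and ages of the collection were mixed, so a peak does not say in which cells the protein was present. The deposited lists comprised 30000 peaks for each replicate, 30000 for the replicates pooled, and 9789 peaks kept by irreproducible discovery rate (IDR) filtering, which asks whether peak ranks repeat between replicates. The IDR list was the same as the 9789 strongest pooled peaks, so both lists gave 1 signal and 1 rank for the genes in it. The signal is the caller's value for a peak. It ran from 206.2 to 40613 in the IDR list (median 410.9), and since its scaling by depth is not given in the sources used here, replicates were compared by rank, with rank 1 the strongest. Read depth is unknown. A gene was counted as bound when a peak summit lay within 500 bp of any of its transcript starts. A missing peak says only that none was listed.

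Rab GTPases are switches that sit on particular membranes in their GTP form and recruit tethers and motors there. Vps proteins, named for yeast mutants in sorting to the vacuole, build the tethers, coats and scission machines of the endosome and lysosome. Syntaxins are the target-membrane SNARE proteins that pair with SNAREs of a vesicle and drive fusion. In the fly embryo this machinery supports the growth of new cell membrane during cellularisation, the recycling of adhesion proteins and the internalisation of signalling receptors.

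The DNA under the summits is shown as 2 sets. The first holds the 2 strongest summits of each family, all upstream of the gene's nearest start. That of Rab5 lies inside the gene, upstream of 1 of its 6 starts. A and T made up 64.4% (Rab3GAP1) to 80.2% (Vps15) of these windows, against a median of 67.3% over all promoter summits. The next summit in each family, not shown, was at 58.4% (Rab39), 78.2% (Vps36) and 63.4% (Syx17). The bases within 50 bp of the strongest IDR summits in each family are given (build dm6, genome sequence from RefSeq, 5′ to 3′ on the strand of the gene). Capitals mark TATCGAT or CGATA on either strand, and these 6 windows hold neither.
Rab5 (chr2L:2363693-2363793, minus strand): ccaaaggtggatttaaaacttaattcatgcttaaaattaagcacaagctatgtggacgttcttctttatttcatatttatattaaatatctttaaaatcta
Rab3GAP1 (chr2L:1611281-1611381, minus strand): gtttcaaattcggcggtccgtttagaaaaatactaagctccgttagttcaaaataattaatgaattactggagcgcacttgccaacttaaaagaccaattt
Vps33B (chr3R:25473254-25473354, plus strand): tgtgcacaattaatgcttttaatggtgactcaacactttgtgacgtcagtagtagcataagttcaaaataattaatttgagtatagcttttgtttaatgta
Vps15 (chr3R:9245934-9246034, minus strand): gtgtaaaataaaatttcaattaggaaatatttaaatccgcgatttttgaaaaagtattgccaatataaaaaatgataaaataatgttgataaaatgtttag
Syx4 (chrX:2744185-2744285, minus strand): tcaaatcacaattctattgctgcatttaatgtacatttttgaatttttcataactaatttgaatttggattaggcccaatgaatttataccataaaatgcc
Syx5 (chr2L:16307167-16307267, plus strand): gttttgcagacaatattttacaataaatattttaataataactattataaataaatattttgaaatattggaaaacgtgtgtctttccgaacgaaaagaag

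The second set held TATCGAT, the core of the DNA replication-related element that the Drosophila factor DREF binds. The windows of 4 Rab and 2 syntaxin genes are shown as examples. Those of Rab2, Rab19, Rab21 and Rab35 also held TATCGAT and are not shown. Every TATCGAT also holds CGATA, since its reverse complement is ATCGATA, so the 2 searches overlap.
Rab6 (chr2L:12109105-12109205, minus strand): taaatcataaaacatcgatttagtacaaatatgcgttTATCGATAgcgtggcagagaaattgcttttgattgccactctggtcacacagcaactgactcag
Rab7 (chr3R:23992953-23993053, plus strand): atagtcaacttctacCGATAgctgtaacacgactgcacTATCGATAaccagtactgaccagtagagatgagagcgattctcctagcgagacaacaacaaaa
Rab8 (chr3L:19871021-19871121, minus strand): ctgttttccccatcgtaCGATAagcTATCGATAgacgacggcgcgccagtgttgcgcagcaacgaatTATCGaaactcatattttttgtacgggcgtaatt
Rab30 (chr2L:7032590-7032690, minus strand): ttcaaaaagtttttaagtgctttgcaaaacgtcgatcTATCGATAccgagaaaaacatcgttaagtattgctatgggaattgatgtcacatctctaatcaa
Syx7 (chr3L:21445725-21445825, plus strand): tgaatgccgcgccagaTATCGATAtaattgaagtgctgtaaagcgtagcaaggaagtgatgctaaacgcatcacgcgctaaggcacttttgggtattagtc
Syx18 (chr3R:24625584-24625684, minus strand): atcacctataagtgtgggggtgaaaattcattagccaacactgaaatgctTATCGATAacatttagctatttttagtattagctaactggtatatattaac

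CG2712 summits were present at the starts of 45 of the 73 genes (61.6%) in the IDR list, against 35.6% of all protein-coding genes. The syntaxins stood highest with 10 of 10 (100%), and the Rab and Vps families were level at 20 of 36 (55.6%) and 15 of 27 (55.6%). Among the Rab GTPases proper, without the regulators of Rab3, 18 of 33 (54.5%) were bound. The Rab share was the least stable. When IDR peaks also had to overlap the strongest peaks of 2 replicates, it was 33.3% against 28.8% of all protein-coding genes without replicate 2, and 30.6% against 27.9% without replicate 3. Among the 4894 strongest IDR peaks it was 19.4%, against 20.6% of all protein-coding genes. When a summit counted only for the nearest start, the Vps share was 33.3%, against 27.4% of all protein-coding genes. In the whole pooled list the counts were 55 of 73 (75.3%), with 26 Rab, 19 Vps and 10 syntaxin genes, against 49.2% of all protein-coding genes.

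Each replicate was then taken alone, cut to its 9789 strongest peaks. In replicate 1, 41 of the 73 genes had a summit, against 35.4% of all protein-coding genes. In replicate 2 it was 39 genes, against 34.4%, and in replicate 3 it was 44, against 36.9%. The mean share of the genes was 56.6% ± 3.45, against 35.6% ± 1.26 for all protein-coding genes (SD, n = 3). The SD describes how far the share varies between replicates, whichever genes make it up. It is not the error of a difference between gene sets. The families parted here. Vps genes averaged 60.5% ± 4.28 (17, 15 and 17 genes in replicates 1, 2 and 3) and Rab genes 44.4% ± 4.81 (15, 15 and 18 genes). In every replicate 9 of 10 syntaxin genes were reached (90%), but a different one was missing each time: Syx7 in replicate 1, Syx16 in replicate 2 and Syx6 in replicate 3. The Rab genes were thus fewer in single replicates than in the IDR list, while the Vps genes were not.

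**Figure D1:**
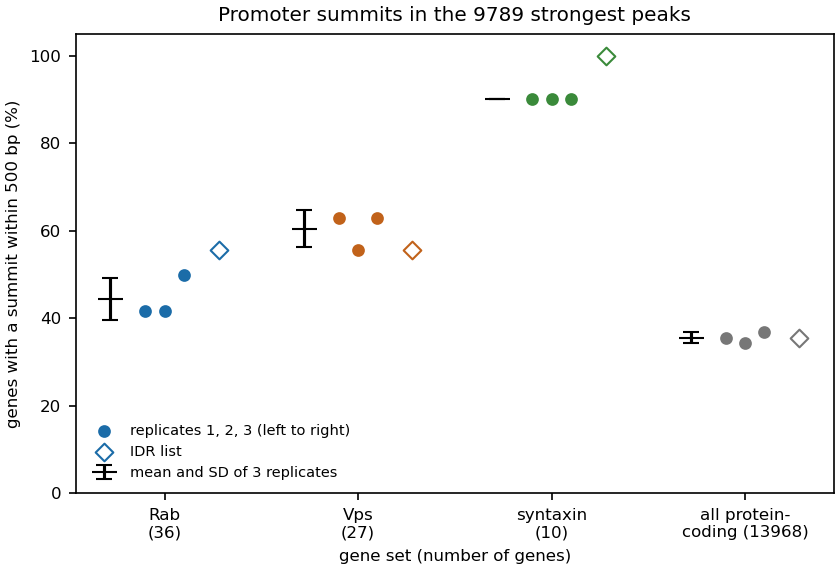
Share of genes (%, vertical axis) with a summit within 500 bp of a start in the 9789 strongest peaks, for the Rab, Vps and syntaxin genes and all protein-coding genes (horizontal axis). Points are replicates 1, 2 and 3, black bars their mean and SD, and open diamonds the IDR list. The replicate means are 44.4% for Rab, 60.5% for Vps and 90% for syntaxin genes, all above the 35.6% of all protein-coding genes.

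In the whole replicate lists of 30000 peaks, 46, 56 and 58 of the 73 genes had a summit in replicates 1, 2 and 3 (mean 73.1% ± 8.81), against 49.2%, 50.7% and 51.8% of all protein-coding genes. The wide spread came from the Rab family, with 18, 26 and 27 genes (65.7% ± 13.7, SD, n = 3). Vps genes numbered 19, 21 and 21, and syntaxins 9, 9 and 10. The lowest peaks of these lists had a deposited −log10 q of 0.0776, 0.458 and 0.456 in replicates 1, 2 and 3, and so little support.

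The frequent binding did not come with strong peaks. Bound members had a median signal of 389.6 and a median rank of 5238, against 474.2 and 4137 for all bound protein-coding genes. Vps genes had the highest median signal of the families (496.4), above the 474.2 of all bound genes. Rab genes (369.3) and syntaxins (352.3) were below it. Only 3 of the 45 (6.67%) were reached within the first 1000 ranks, against 14.9% of all bound genes. Counted along the pooled list, the 500 strongest peaks reached 1 of the 73 genes (1.37%) against 2.8% of all protein-coding genes, the 2000 strongest 8 (11%) against 9.59%, and the 5000 strongest 21 (28.8%) against 21.1%. Among these 5000 the syntaxins had 3 of 10 (30%), Vps genes were at 40.7% and Rab genes at 19.4%. By the end of the IDR list all 10 syntaxins were reached.

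**Figure D2:**
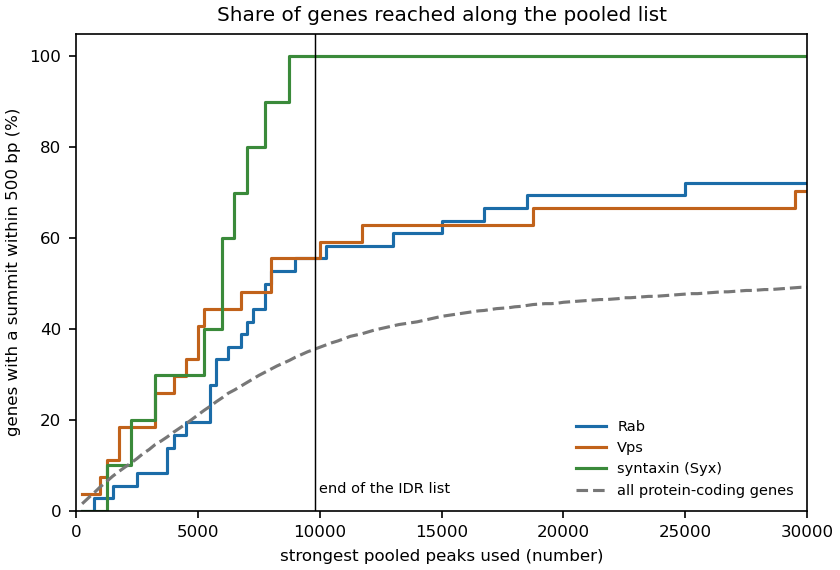
Share of genes (%, vertical axis) with a summit within 500 bp of a start when only the strongest pooled peaks up to a given number (horizontal axis) are used; coloured steps are the families and the dashed grey line is all protein-coding genes. At 2000 peaks Rab genes are at 5.56%, Vps genes at 18.5% and syntaxins at 10%, against 9.59% of all protein-coding genes, and at 9789 peaks they are at 55.6%, 55.6% and 100%, against 35.6%.

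The Rab genes are given by the compartment they serve, in groups of 3 to 9 genes that are to be read against the 35.6% of all protein-coding genes and the 55.6% of the Rab family. All 5 Rabs of the endoplasmic reticulum (ER) and Golgi were bound: Rab1, which acts between ER and Golgi, Rab2, Rab6, Rab18 and Rab30. So were 5 of 6 Rabs of early and recycling endosomes, namely Rab5, Rab11, Rab14, Rab21 and Rab35. Of 3 late endosomal and lysosomal Rabs, Rab7 alone was bound, and Rab9 and Rab32 were not. Of 5 Rabs of regulated or polarised secretion, Rab8 and Rab10 were bound, and Rab3 and Rab27, known from synaptic vesicles and secretory granules, and Rab26 were not. Among 9 others, Rab19, Rab23, Rab39, Rab40 and RabX1 were bound. None of the 5 Rab9-named copies on X was.

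Rab5, the Rab of the early endosome, had the strongest Rab summit (signal 1758, rank 595). It lay inside the gene (2L, 2359142 to 2365273, minus strand), 239 bp upstream of 1 of the 6 starts. Its ranks were 769, 443 and 778 in replicates 1, 2 and 3, with signals of 397.0, 903.5 and 482.8. It was high in each replicate, and the summits lay 237 to 281 bp upstream. Rab3GAP1, a subunit of the GTPase-activating complex of Rab3, followed (signal 1138, rank 1262; 626, 1757 and 1737 in the replicates). Its summit lay 79 bp from the start of CG14352 and 174 bp from its own. Rab39, linked to lysosomes and autophagy in mammals, had signal 760.5 and rank 2256 (1379, 2854 and 2749 in the replicates), but its summit was 11 bp from the start of Pdp and 283 bp from that of Rab39.

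The other subunit of the Rab3 complex, Rab3-GAP, reached rank 3511 (signal 540.8) and ranks 3733 and 2411 in replicates 2 and 3. It had no promoter summit in the whole list of replicate 1, where the nearest summit lay 2708 bp upstream. Rab11, which drives recycling to the plasma membrane, had rank 3607 (signal 529.3; 2765, 3722 and 4879 in the replicates). Both subunits of the complex that switches Rab3 off were therefore in the IDR list, while Rab3 itself (nearest IDR summit 2023 bp upstream) had no promoter summit in any list. Rab3-GEF, which switches Rab3 on, had a weak one in the pooled list (rank 24794) and in replicate 2 (24328) only.

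Among Vps genes, Vps33B was the strongest of all 73 (signal 3054, rank 189; 3R, 25473490 to 25475756, plus strand). It encodes a Sec1/Munc18-type protein of endosomal and lysosomal tethering. Its ranks were 170, 187 and 234, with signals of 854.4, 1345 and 890.0 in replicates 1, 2 and 3, so it was within the first 250 in each. The summit stood between the starts of Vps33B (186 bp) and Fur1 (246 bp). Its binding partner Vps16B had no promoter summit in any of the 5 lists, and the nearest IDR summit was 13418 bp away. Vps15, the regulatory subunit of the lipid kinase Vps34, had signal 1310 and rank 990 (1166, 1076 and 810 in the replicates), with no other protein-coding start within 500 bp.

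Of 9 genes of the ESCRT complexes, which sort ubiquitinated receptors into the interior of endosomes, 6 were bound: Vps2, Vps20, Vps24, Vps36, Vps60 and the ATPase gene Vps4. Vps36 was the strongest (signal 1153, rank 1238; 604, 1634 and 1757 in the replicates), with a summit 9 bp from the start of Liprin-beta and 133 bp from its own. The ESCRT genes left out were Vps25, Vps28 and Vps37B. The GARP and EARP tethers share subunits and return vesicles to the Golgi and to recycling endosomes. Their genes Vps52 (signal 987.8, rank 1562; 1311, 2011 and 1504) and Vps50 (986.7, rank 1565; 935, 1801 and 2327) were bound, and Vps51 and Vps53 were not. With so few genes in each, these counts cannot be set apart from the 55.6% of the Vps family.

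Of 6 genes of the HOPS and CORVET tethers and their relatives, 4 were bound (Vps8, Vps11, Vps33B and Vps39). Retromer retrieves receptors from endosomes. Of its 3 subunit genes, Vps29 was bound (rank 4998, with 6637, 5085 and 3856 in the replicates), and Vps26 and Vps35 were not. Vps45, a partner of endosomal syntaxins, was bound at rank 3183. None of the 3 Vps13-type genes, which encode bridges for lipid transfer, had a promoter summit in any list. These groups too are small. They are to be read against the 35.6% of all protein-coding genes and the 55.6% of the Vps family.

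All classes of syntaxin were represented: 4 of 4 of the ER and Golgi, 3 of 3 of endosomes, 2 of 2 of the plasma membrane, and Syx17 of autophagosomes. Syx4, a plasma membrane syntaxin, was the strongest (signal 1153, rank 1237; 1755, 1105 and 1140 in the replicates), and its summits lay 152 to 168 bp upstream in every replicate. Syx4 lies 4686 bp from CG2712, the gene that was tagged, and its summit lies 9833 bp from the end of CG2712. How much neighbouring DNA the construct carries is not given in the sources used here, and its part in the Syx4 peak was not tested.

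Syx5, needed for fusion at the Golgi, had signal 804.1 and rank 2070 (2437, 2181 and 1853 in the replicates). Its summit was 129 bp from its own start and 81 bp from that of CG5861. Syx17 had rank 3250 (4350, 3563 and 2373), the ER syntaxin gene Syx18 rank 5014 (5911, 5861 and 3515) and the endosomal Syx13 rank 5790 (8585, 6293 and 4357). Below Syx5 the syntaxin peaks were of middling or low rank, and Syx1A, the syntaxin of synaptic release, had rank 6963. Syx6 was the weakest syntaxin (rank 8551), with ranks of 6073 and 8321 in replicates 1 and 2 and 17973 in replicate 3.

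**Figure D3:**
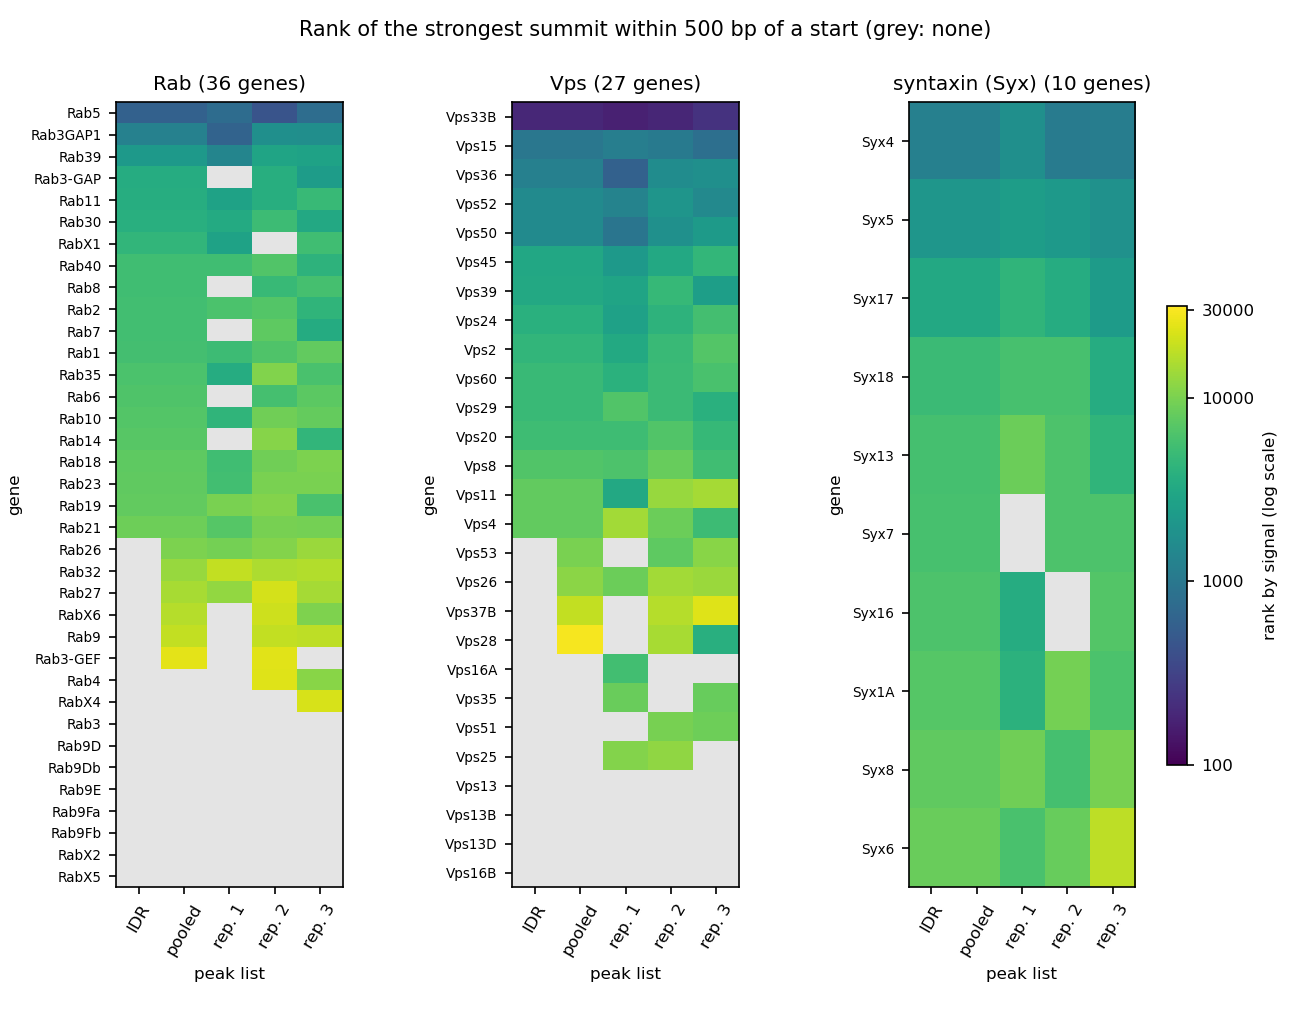
Rank by signal (colour, log scale) of the strongest summit within 500 bp of a start, for each of the 73 genes (rows, by family) in the IDR list, the pooled list and replicates 1, 2 and 3 (columns). Grey marks no summit. Vps33B holds the strongest ranks throughout (189 in the IDR list), and 12 genes are grey in all 5 lists.

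Beyond the 45 genes in the IDR list, 10 had a summit in the pooled list below the IDR peaks, 6 in replicate lists alone and 12 in no list. The whole pooled list reached 75.3% of the members, against 49.2% of all protein-coding genes. The same split was not made for all protein-coding genes, so these counts have no share to be set against. The 12 were Rab3, Rab9D, Rab9Db, Rab9E, Rab9Fa, Rab9Fb, RabX2, RabX5, Vps13, Vps13B, Vps13D and Vps16B. For 5 of them less than 90% of the 50-base stretches within 500 bp of the first start occurred once in the assembled chromosomes. The share was 58.6% for Rab9D, 49.2% for Rab9Db, 45.7% for Rab9E, 40.8% for Rab9Fa and 79.4% for RabX2, against a median of 100% over the 73 genes. How far reads could be placed there was not tested.

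Some genes sat at the edge of the rules. The weakest bound member was Rab21 (signal 227.6, rank 8967), and the nearest ones below the IDR list were Vps53 (202.4, pooled rank 9933) and Rab26 (199.0, pooled rank 10079). Syx16 counted by 2 bp, with its summit 498 bp upstream and 146 bp from the start of HERC2. Rab26 had an IDR summit at 690 bp, outside the window. Other genes differed between replicates: Vps28 had rank 3783 in replicate 3, 14761 in replicate 2, 29496 in the pooled list and none in replicate 1, and Vps16A had rank 5589 in replicate 1 and none in the other lists. Vps35 was listed in replicates 1 and 3 (ranks 8545 and 8333) and not in the pooled list, and Vps51 in replicates 2 and 3 (9819 and 8847). Vps25 appeared in replicates 1 and 2 (10857 and 12191) and Rab4 in replicates 2 and 3 (24089 and 11423).

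Of the 45 bound genes, 37 had a summit in the whole lists of all 3 replicates (82.2%), against 91.1% of all bound protein-coding genes. All 15 bound Vps genes did, with 14 of 20 Rab and 8 of 10 syntaxin genes. Replicate 1 lacked 6 of the 45 (13.3%), against 5.83% of all bound genes: Rab3-GAP, Rab6, Rab7, Rab8, Rab14 and Syx7. Replicate 2 lacked RabX1 and Syx16 (4.44%), against 2.09%, and replicate 3 lacked none, against 1.67%. The losses therefore fell mostly on Rab genes and on replicate 1.

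Summits lay upstream of the gene's nearest start at 39 of the 45 genes (86.7%), against 87.9% of all bound genes. The median position was 99 bp upstream, against 123 bp upstream over all bound genes, and it was nearer the start in Rab genes (68 bp) than in Vps genes (124 bp), with syntaxins at 79 bp. In genes with a summit in all 3 replicates, the summits of the replicates spanned a median of 67 bp for the 37 members, against 52 bp for all 4529 such genes. Whether the families differ in position was not tested.

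**Figure D4:**
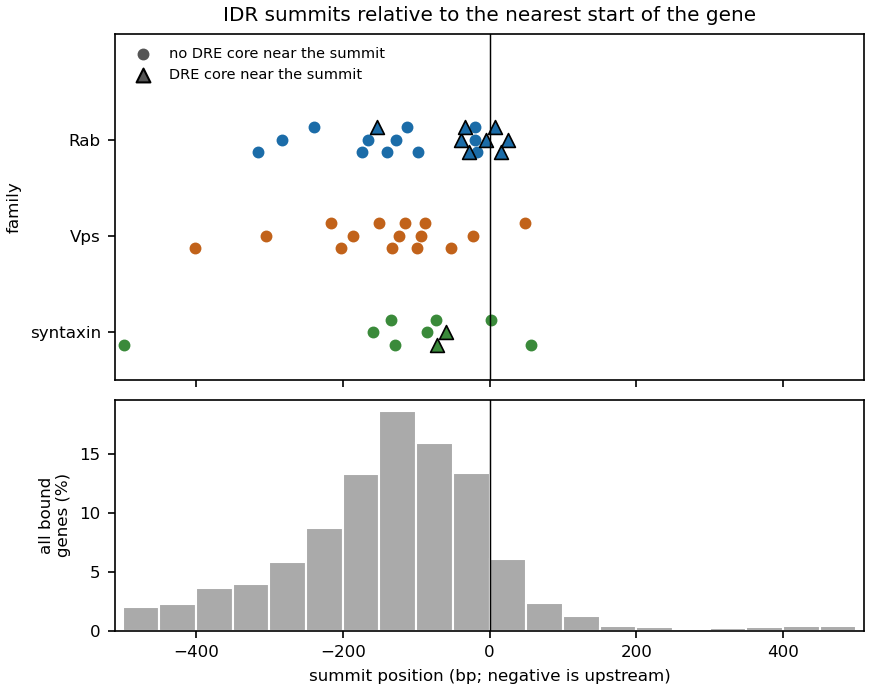
Position of the IDR summit relative to the nearest start (bp, negative is upstream) for each bound Rab, Vps and syntaxin gene (upper panel) and, as a histogram of 50 bp bins (%), for all bound protein-coding genes (lower panel). Triangles mark windows with TATCGAT, the core of the DNA replication-related element (DRE). The medians are 68, 124 and 79 bp upstream in the 3 families.

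Many of these peaks stood between neighbouring genes, so they cannot be credited to the trafficking gene alone. Another protein-coding start lay within 500 bp of the summit at 31 of the 45 (68.9%), against 54.5% of all bound genes. It did so at 14 Rab, 12 Vps and 5 syntaxin genes. The trafficking gene was the nearest at 32 of the 45 (71.1%), against 73.8% for all bound genes. Examples where the neighbour was nearer were Vps52 beside Elp4 (25 bp), Rab23 beside plx (105 bp) and Vps2 beside Exo84, an exocyst gene (260 bp). Of the 73 genes, 42 had another start within 1000 bp and 33 of these were bound (78.6%), against 52.9% of all such genes. Of the 31 without one, 12 were bound (38.7%), against 22.6%. All 5 such syntaxin genes were bound, with 5 of 17 such Rab genes (29.4%) and 2 of 9 such Vps genes (22.2%). The Vps share there was thus level with the 22.6% of all such genes.

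TATCGAT lay within 50 bp of the summit at 10 of the 45 genes (22.2%), against 11.4% of all 3621 promoter summit windows. In windows of the same 101 bases placed 300 bp to either side it was in 2.22% for the members and 1.95% for all. It was found at 8 of 20 Rab genes (Rab2, Rab6, Rab7, Rab8, Rab19, Rab21, Rab30 and Rab35), at Syx7 and Syx18, and at 0 of 15 Vps genes. GGTCACA, the core of promoter motif 1, which the factor M1BP binds, was in 5 of the 45 windows (11.1%), 3 of them at syntaxins, against 4.53% of all. The shares of TATAAA (24.4% against 22.5%) and GAGAG (4.44% against 8.15%) were also counted, as were AAATAT (24.4% against 35.2%), CGATA (37.8% against 26.7%), CACGTG (0% against 0.939%) and CAGGTAG (0% against 0.387%). All were matched on both strands, and a match is a description of the letters and not of a bound site.

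The genes with TATCGAT at the summit were also described apart, a split made after the values had been seen. Among members, 7 of 10 summits with it lay within 50 bp of a start (70%), against 17.1% of the 35 without it. Over all bound genes the shares were 45.5% of 561 and 16.2% of 4412. Members with it had a median rank of 5741 and those without it 4459; over all bound genes these were 5667 and 3867. In replicate 1, 4 of the 10 with it had no summit (Rab6, Rab7, Rab8 and Syx7), against 2 of the 35 without it (5.71%). Over all bound genes the shares missing there were 9.8% and 5.33%. The families did not all follow this. The 2 syntaxin genes with TATCGAT had a median rank of 5452 and the 8 without it 6074, and 0 of the 2 had the summit within 50 bp of a start.

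A and T made up a median of 68.3% of the member windows, against 53.5% of their flanks 300 bp away, and 67.3% against 55.4% over all promoter summits. The window exceeded the mean of its own flanks at 39 of 45 genes (86.7%), against 73.7% of all promoter summits. By family it did so at 17 of 20 Rab, 15 of 15 Vps and 7 of 10 syntaxin genes (70%). Vps windows were the richest in A and T (72.3%), and Rab and syntaxin windows were both at 63.9%. The range was wide, from 41.6% at Rab2 to 81.2%.

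**Figure D5:**
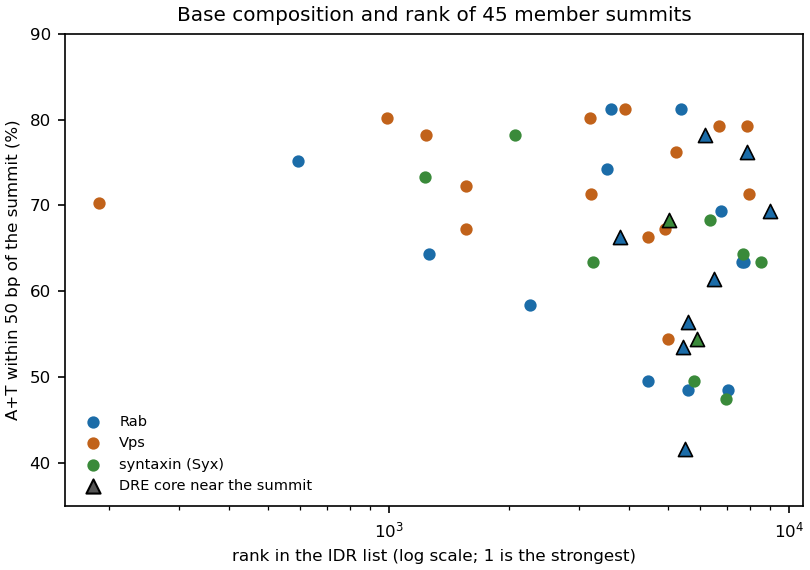
Share of A and T within 50 bp of the summit (%, vertical axis) against rank in the IDR list (horizontal axis, log scale, 1 is the strongest) for the 45 bound genes, coloured by family. Triangles mark windows with TATCGAT, the core of the DRE, whose median is 63.9%, while the median without it is 69.3%. Within Rab genes both medians are 63.9%, and within syntaxins they are 61.4% with it and 63.9% without it. All 15 Vps windows (median 72.3%) are without it.

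Other genes of the trafficking machinery were also bound often, at shares above those of the Rab and Vps genes and below that of the syntaxins. Of 21 other SNAREs and SNARE-recycling genes, 18 were bound in the IDR list (85.7%; 18, 15 and 17 in the strongest peaks of replicates 1, 2 and 3), against 35.6% of all protein-coding genes. The strongest were Vti1b (signal 2500, rank 294), Snap29 (1456) and Sec20 (1209), whose summit lay 1 bp from the start of dgrn. Snap25, nSyb and Sec22 were not bound. Of 20 genes that regulate Rabs, 17 were bound (85%; 15, 15 and 17), led by the GTPase-activating protein gene Tbc1d8-9 (signal 23757, rank 3), by Mon1 (2705, rank 250), part of the exchange factor of Rab7, and by the Rab5 effector gene Rbsn-5 (1833). The Rbsn-5 summit was nearer to the start of PAPLA1 (82 bp).

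Among partners of ESCRT, HOPS and retromer under other symbols, 12 of 17 were bound (70.6%), with CHMP2B (3203, rank 168), Uvrag (856.2) and Stam (797.7) the strongest. The CHMP2B summit was nearer to the start of Tcs5 (99 bp). The exocyst, which tethers secretory vesicles, had 7 of 8 (87.5%), led by Sec6 (1305), Sec5 (857.3) and Sec3 (713.5). The summits of Sec6 and Sec3 were nearer to Atg7 (95 bp) and to COX7B (127 bp). COPI and COPII coats of the early secretory pathway had 9 of 13 (69.2%). Their strongest was Sec13 (9887, rank 11), with a summit 10 bp from the start of ATPsynCF6 and 257 bp from its own, then alphaCOP (4551), whose summit was nearer to CG13919 (105 bp), and beta'COP (866.3). Clathrin and its adaptors had 10 of 13 (76.9%), with AP-1sigma (1460) and the adaptor genes or (1168) and cm (1151) the strongest. The genes g, rb and AP-1-2beta of this list were not bound. The AP-1sigma summit was nearer to the start of GluProRS (117 bp). The Rab and Vps families, at 55.6% each, thus had lower shares than all 6 of these lists, and no test of that difference was made.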

How the data were processed

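Per the deposited text notes, peaks were called on each replicate and on the 3 replicates together against 1 control file, and the IDR list was made from these. Per the labels the build is dm6. The peak caller, its settings and the IDR threshold are not given in the sources used here. These files have narrowPeak layout. The deposited signal value of each peak was used for ranking within a list. The deposited −log10 q was used only to describe the ends of the lists, since the IDR peaks all had 1 value of it. Only genes on the 7 chromosomes were counted, while ranks and list lengths took in every deposited peak. No peak on these chromosomes ran past the chromosome end in the reference.

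A summit (peak start plus summit offset) within 500 bp of any of the 19630 transcript starts of protein-coding genes in Ensembl 115 counted for every gene concerned, so 1 summit can count for neighbours. Counts and shares were set beside those of all protein-coding genes, with mean and SD over 3 replicates. No test was made of the members or lists, because they were chosen with earlier results of these data known. The replicates are labelled as biological. The genes named were the 5 strongest of each family, all with no summit in any list, the symbols that are not Rab GTPases and up to 3 of each pathway list; others are named where a count, a role or a disagreement between lists turns on them, after their values were seen. Compartment groups were partly rearranged, and the 8 short sequences and the split by TATCGAT chosen, after results had been seen. In the pathway lists 1 symbol (Ric1) was not matched, and Vps15 was removed as a member. The counting was tested on simulated data, where 99 of 99 planted summits inside the window were recovered. Counting of a planted summit for a neighbouring gene was not tested there. Python 3.11.15, NumPy 2.4.6, pandas 2.3.3 and matplotlib 3.10.9 were used.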

Additional observations from a re-analysis of the deposited data

How the results depend on the processing

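The count of 45 bound genes stayed within 1.5 times under most alternatives, all planned. It was 40 with a 250 bp window (54.8% against 30.1% of all protein-coding genes) and 47 with 1000 bp (64.4% against 39.5%). When a summit counted only for the nearest start, it was 32 (43.8% against 27.4%). It was 19 in the 4894 strongest IDR peaks and 22 when IDR peaks had to overlap by 50% reciprocally with the strongest peaks of all 3 replicates. These were 26% and 30.1% of the members, against 20.6% and 18.2% of all protein-coding genes. Among these 4894 the Rab genes numbered 7 (19.4%, below the share of all genes), the Vps genes 9 and the syntaxins 3. With 50% reciprocal overlap they were 7, 9 and 6 (19.4%, 33.3% and 60%, against 18.2% of all protein-coding genes). With the nearest start only, they were 17, 9 and 6 (47.2%, 33.3% and 60%, against 27.4%). There the Vps share was the closest to that of all genes. The Rab count was 10 in IDR peaks that overlapped, by any amount, the strongest peaks of all 3 replicates, which is 27.8% of Rab genes against 26.4% of all protein-coding genes, so the Rab excess was nearly gone there. These alternatives use fewer peaks or starts by construction. Without each replicate in turn, IDR peaks had to overlap the strongest peaks of both others, and the count was 32 to 36 for all members, 11 to 14 for Rab genes (12 without replicate 2, 33.3% against 28.8% of all protein-coding genes, and 11 without replicate 3, 30.6% against 27.9%), 13 to 14 for Vps genes and 8 for syntaxins. The mean over replicates was 40 to 42.5 members. The median signal of bound members was 385 to 390. No paired analysis was possible because there is 1 group. Read depth is unknown, lists end at a fixed length, and a summit shared by neighbouring starts cannot be assigned to 1 gene.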

Other observations

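The chromosome arms differed in how many of the genes were bound. On 2L 9 of 11 were (81.8%), on 3L 10 of 14 (71.4%) and on 3R 12 of 17 (70.6%), against 34.1%, 36.8% and 36.6% of all protein-coding genes there. On 2R only 5 of 13 were (38.5%, against 34%) and on X 9 of 18 (50%, against 36.8%), where the 5 Rab9-named copies and RabX2 account for 6 of the 9 without a summit.

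Among the 28 members without an IDR promoter summit, TATCGAT lay within 50 bp of the first start at 4 (RabX6, Vps16A, Vps35 and Vps51; 14.3%), against 566 of 8995 such protein-coding genes (6.29%). Each of these 4 had a promoter summit in at least 1 replicate list. Rab9 and Rab32, which had no IDR summit at a start, each held 2 IDR summits inside the gene.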
